A study of Mus musculus with 30 samples.

Results

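Genes that mark liver macrophages were followed through all 6 genotype and dose groups of a PFOS study in mice. The 10 genes were Clec4f, Cd5l, Vsig4, Marco, C1qa, C1qb, C1qc, Cd68, Adgre1, and Csf1r, chosen by name as markers of Kupffer cells. The choice was made with earlier results of these data known. Every probe set annotated to one of them was taken, which gave 15 probe sets, out of 45101 probe sets and 18194 named genes on the array. All 15 probe sets passed the filter on weak signal. The Marco probe sets exceeded the overall median, the cutoff of this filter, in 21 and 19 of the 30 arrays. Those of the other genes exceeded it in all 30. Liver RNA came from male mice aged 6 to 9 months that were given PFOS, a perfluorinated sulfonate, as the potassium salt by gavage on 7 days. The treated groups were Null mice at 3 and 10 mg/kg and wild-type (WT) mice at 3 and 10 mg/kg, and the control groups were Null and WT mice given the Tween 20 vehicle alone (0 mg/kg). Each group held 5 mice, with 1 array per mouse. Null mice were 129S4/SvJae-Pparatm1Gonz/J, which lack the nuclear receptor PPARα in every tissue, and WT mice were 129S1/SvlmJ. Because the substrains differ, a difference between genotypes and one between substrains cannot be told apart.

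Kupffer cells are the resident macrophages of the liver and sit in the sinusoids, where they take up bacteria, dead cells, and lipoproteins from the blood. They are kept in number by signaling through CSF1R and release cytokines when activated. Several genes are used to recognize them. Clec4f, a C-type lectin, is particular to Kupffer cells in mice. Vsig4 is a receptor for complement C3 fragments, Marco is a scavenger receptor for bacteria, and Cd5l is a secreted scavenger-type protein of tissue macrophages. Cd68, a lysosomal glycoprotein, Adgre1 (older name Emr1), an adhesion receptor, and Csf1r, the receptor for CSF1 and IL34, are shared with other macrophages. C1qa, C1qb, and C1qc encode the chains of C1q, the recognition unit of the classical complement pathway, and in liver are made mainly by macrophages.

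The values were log2 expression values from Robust Multichip Average (RMA), and a change was the difference of group means on that scale. A probe set was called at an adjusted p under 0.05 (limma, Benjamini-Hochberg over 24069 kept probe sets). With 5 arrays per group, the number of arrays limited the precision. In whole liver, fewer macrophages, less RNA per macrophage, and more RNA from other cells cannot be told apart. The paper reports heavier livers at the higher dose in both genotypes. The part of liver weight in the changes given here was not tested. All 10 hepatocyte markers, which check the labeled tissue, passed the filter, and their mean lay between 12.99 and 13.37 in all 30 arrays.

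Several arrays labeled WT 0 mg/kg stood apart. Replicates 4 and 5 lay on the Null side for 22 of 22 probe sets that separated the other 13 WT arrays from the 15 Null arrays. The mean of 3 Ppara probe sets was 8.66 and 8.74 in these arrays, against 9.93 to 10.77 in the other WT arrays and 8.78 to 9.81 in Null arrays. Replicate 3 of the same group had the highest mean of the 10 genes of all 30 arrays, 9.76, against 8.30 to 9.58 in the others. Values without these arrays are given beside several of the results on WT mice below.

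**Figure D1:**
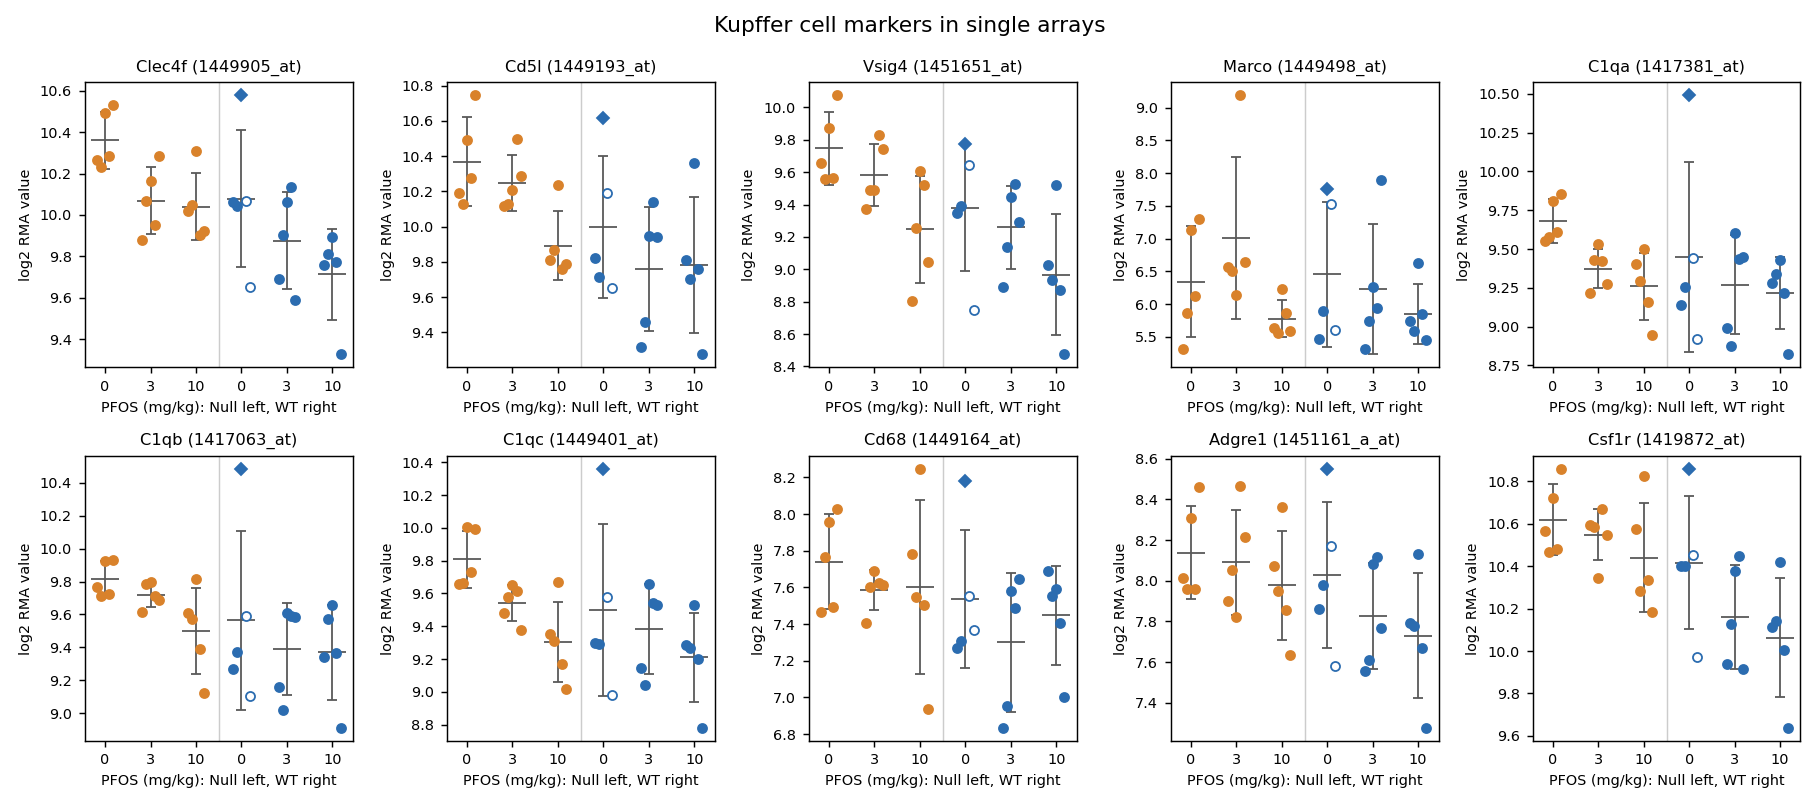
Log2 RMA values of the 10 Kupffer cell markers in the 30 arrays, by PFOS dose in mg/kg, with Null groups on the left (orange) and WT groups on the right (blue). Points are single arrays, the bars are the group mean and SD (n = 5), open circles are replicates 4 and 5 and the diamond is replicate 3 of WT 0 mg/kg. For 9 of the 10 genes the highest group mean was that of Null 0 mg/kg, and the diamond lies above the other WT 0 mg/kg arrays in each panel.

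At 10 mg/kg in Null mice, C1qa, C1qc, and Cd5l fell to 0.747, 0.704, and 0.719 of the control level. C1qb, Vsig4, and Clec4f had lower means as well and did not pass the test, while Cd68, Adgre1, and Csf1r differed by less than 0.18 on the log2 scale. In total 3 of 15 probe sets were called lower and 0 higher, where 3.88% of all kept probe sets were called lower. The methods' t-test called C1qa and C1qc (2 of 15) and not Cd5l, whose p of 0.00327 missed its limit of 0.0025. At an unadjusted p under 0.05, 7 of 15 were lower, where 12.3% of all kept probe sets were. All 10 genes had a mean below that of controls, as did 50.8% of all kept probe sets, and their median change was -0.37, against 0.00 over all kept probe sets.

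C1qc stood at 9.35, 9.31, 9.67, 9.17, and 9.02 in the 5 Null 10 mg/kg arrays (replicates 1 to 5). In Null 0 mg/kg arrays it stood at 9.66, 9.66, 10.00, 9.73, and 9.99. Only replicate 3 of the treated group reached the controls, so the groups overlapped by 1 array. The change was -0.51 with a standard error of 0.11 and a 95% interval of -0.74 to -0.27 (limma, adjusted p = 0.0137). C1qa stood at 9.40, 9.29, 9.50, 9.16, and 8.95 in Null 10 mg/kg arrays and at 9.55, 9.58, 9.81, 9.61, and 9.85 in Null 0 mg/kg arrays. Every treated array lay below every control, and 4.15% of all kept probe sets were separated in this direction. The change was -0.42 with a standard error of 0.10 and an interval of -0.64 to -0.20 (limma, adjusted p = 0.0223).

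C1qb, the third chain, was read by 3 probe sets. On 1417063_at it stood at 9.61, 9.57, 9.82, 9.39, and 9.12 in Null 10 mg/kg arrays and at 9.77, 9.71, 9.93, 9.73, and 9.93 in Null 0 mg/kg arrays. Replicate 3 lay among the controls and the other treated arrays lay below all of them. Its change of -0.31 did not pass the test (interval -0.53 to -0.09, adjusted p = 0.0833). The probe sets 1434366_x_at and 1437726_x_at gave -0.21 and -0.59, and neither passed (adjusted p = 0.254 and 0.134). The ending x_at marks probe sets with probes that can match other transcripts, so these readings of C1qb are less certain.

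Cd5l stood at 9.81, 9.87, 10.23, 9.76, and 9.78 in Null 10 mg/kg arrays, against 10.19, 10.13, 10.49, 10.28, and 10.75 in Null 0 mg/kg arrays. Replicate 3 was again the treated array that reached the controls. The change was -0.48 with a standard error of 0.12 and an interval of -0.73 to -0.22 (limma, adjusted p = 0.0277). Vsig4 stood at 8.80, 9.26, 9.60, 9.52, and 9.05 in Null 10 mg/kg arrays, against 9.66, 9.56, 9.87, 9.57, and 10.08 in Null 0 mg/kg arrays. Its change of -0.50 had an interval of -0.81 to -0.19 and fell just outside the threshold (adjusted p = 0.0510). Clec4f stood at 10.02, 10.05, 10.31, 9.90, and 9.92 in Null 10 mg/kg arrays, against 10.26, 10.23, 10.49, 10.28, and 10.53 in Null 0 mg/kg arrays. For Vsig4 and Clec4f alike, 4 of 5 treated arrays lay below all controls. The change of Clec4f was -0.32 (interval -0.53 to -0.11, adjusted p = 0.0596).

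The pan-macrophage genes showed smaller differences. Csf1r gave changes of -0.18, -0.08, and 0.02 on its 3 probe sets, with adjusted p between 0.386 and 0.945. Adgre1 differed by -0.16 (interval -0.47 to 0.15, adjusted p = 0.559) and Cd68 by -0.14 (interval -0.52 to 0.24, adjusted p = 0.709). Cd68 stood at 7.78, 7.55, 8.25, 7.51, and 6.94 in Null 10 mg/kg arrays and at 7.47, 7.77, 7.96, 7.49, and 8.03 in Null 0 mg/kg arrays, so its treated arrays spanned the whole range of the controls. Marco differed by -0.57 and -0.36 on its 2 probe sets, with intervals of -1.59 to 0.45 and -1.24 to 0.51. These intervals are wide, and whether the macrophage genes differed among themselves in their response was not tested.

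The calls in Null mice depended on the spread that the fit used. In a fit of all 30 arrays together, 0 of 15 probe sets were called, with adjusted p of 0.0693 for C1qc, 0.166 for C1qa, and 0.0985 for Cd5l. Over all kept probe sets, that fit called 2245 in either direction, against 1695 in the fit of the Null arrays alone. Leaving out single Null arrays gave between 1 and 6 calls, with 1 call without replicate 3 or 5 of 0 mg/kg or replicate 5 of 10 mg/kg, and 6 calls without replicate 3 of 10 mg/kg. C1qc was called in all 15 of these runs, C1qa was lost in 3, and Cd5l in 6. The calls over all kept probe sets in these runs are not given here.

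**Figure D2:**
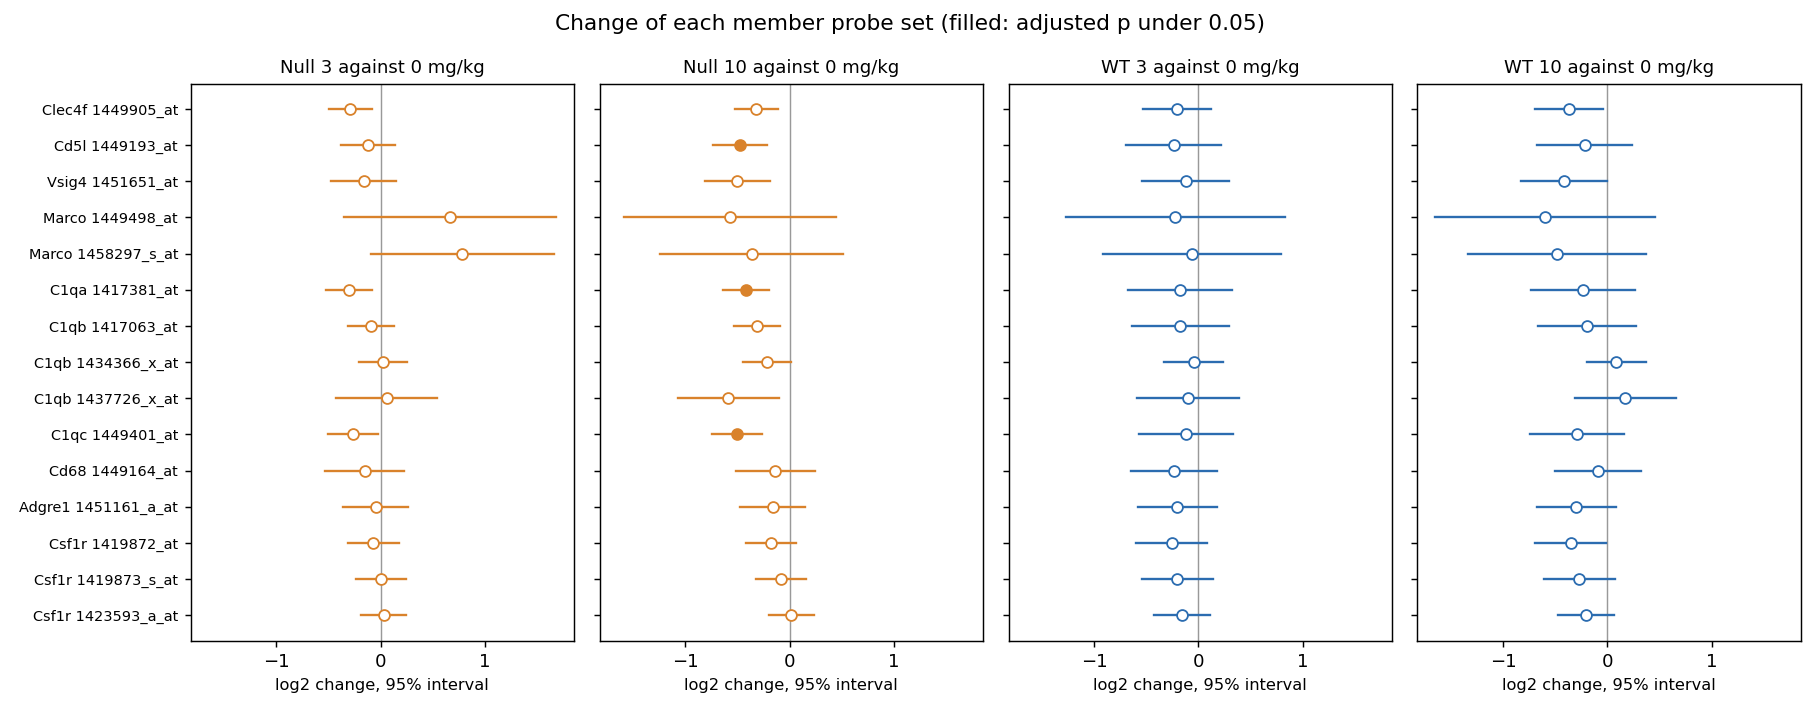
Log2 change of each of the 15 probe sets against 0 mg/kg with its 95% interval, for Null mice at 3 and 10 mg/kg and WT mice at 3 and 10 mg/kg. Filled points passed the test, which were Cd5l, C1qa, and C1qc at Null 10 mg/kg, and the intervals of the Marco probe sets are the widest.

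C1qb, C1qc, and C1qa follow each other directly on chromosome 4 in the mouse annotation (RefSeq, GRCm38.p6). Promoter sequences were available for 7 of the 10 genes, and C1qa, Adgre1, and Csf1r had no entry. The 250 bases before the start of transcription are shown for the neighbors C1qc and C1qb, for Cd5l, which also fell, and for Vsig4, whose change was close to the threshold. Each is written 5′ to 3′ on the strand of the gene. Capitals mark GAGGAA, the purine-rich box bound by PU.1, a transcription factor of macrophages, or its reverse complement TTCCTC.
C1qc (chr4:136892915-136893164, minus strand): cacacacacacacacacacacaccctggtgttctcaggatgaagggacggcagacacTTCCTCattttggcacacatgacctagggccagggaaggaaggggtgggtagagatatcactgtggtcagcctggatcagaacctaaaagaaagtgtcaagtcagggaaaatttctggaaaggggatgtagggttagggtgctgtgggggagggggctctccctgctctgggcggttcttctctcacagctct
C1qb (chr4:136886201-136886450, minus strand): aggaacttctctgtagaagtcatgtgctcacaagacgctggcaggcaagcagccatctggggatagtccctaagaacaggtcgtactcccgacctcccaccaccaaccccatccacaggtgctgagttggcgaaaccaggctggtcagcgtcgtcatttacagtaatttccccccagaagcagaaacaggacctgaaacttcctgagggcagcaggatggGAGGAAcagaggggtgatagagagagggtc
Cd5l (chr3:87357631-87357880, plus strand): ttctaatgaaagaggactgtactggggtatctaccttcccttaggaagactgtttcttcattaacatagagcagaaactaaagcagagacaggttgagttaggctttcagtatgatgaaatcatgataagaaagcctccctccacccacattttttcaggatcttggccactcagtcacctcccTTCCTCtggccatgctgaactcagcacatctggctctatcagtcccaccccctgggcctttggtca
Vsig4 (chrX:96293439-96293688, minus strand): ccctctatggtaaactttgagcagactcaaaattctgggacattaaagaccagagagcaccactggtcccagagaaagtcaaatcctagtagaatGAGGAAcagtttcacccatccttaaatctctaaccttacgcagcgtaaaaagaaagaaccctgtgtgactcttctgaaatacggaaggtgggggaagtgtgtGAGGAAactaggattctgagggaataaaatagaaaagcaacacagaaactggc
The box was found on either strand in 6 of the 7 windows, and 23.3% of all 32851 windows of this length held it. The windows of C1qb and C1qc and that of Cd5l held 1 match each and that of Vsig4 held 2, while Clec4f was the member without one. A match is a description of the letters and no evidence of binding.

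At 3 mg/kg in Null mice, 0 of 15 probe sets were called (limma, 3.88% of all kept probe sets called in either direction), 3 had an unadjusted p under 0.05 and were lower (9.51% of all kept probe sets), and the methods' t-test called 0. C1qa stood at 9.22, 9.43, 9.53, 9.42, and 9.27 and C1qc at 9.48, 9.58, 9.65, 9.62, and 9.38 in Null 3 mg/kg arrays. For both genes, all 5 arrays lay below all Null controls given above, where 4.1% of all kept probe sets were separated in this direction. Their changes were -0.31 (interval -0.52 to -0.09, adjusted p = 0.115) and -0.27 (interval -0.50 to -0.03, adjusted p = 0.215). Clec4f stood at 9.88, 10.07, 10.16, 9.95, and 10.28, with 4 arrays below all controls and a change of -0.29 (interval -0.50 to -0.08, adjusted p = 0.113). The other members differed by -0.16 to 0.06, Marco aside. The median over the 10 genes was -0.14, and -0.07 without replicate 5 of the Null controls.

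Between 10 and 3 mg/kg in Null mice, 0 of 15 probe sets were called (limma, 0% of all kept probe sets), 7 had an unadjusted p under 0.05, all lower at 10 mg/kg (5.36% of all kept probe sets), and the methods' t-test called 0. Cd5l was lower by 0.36 on the log2 scale and Vsig4 by 0.34, with unadjusted intervals of -0.61 to -0.10 and -0.65 to -0.03. The smallest adjusted p was 0.543, and C1qa differed by -0.11 (interval -0.33 to 0.10). The second Marco probe set was the 1 of 15 whose groups did not overlap, at 5.56 to 5.88 in Null 10 mg/kg and 6.11 to 8.87 in Null 3 mg/kg arrays, where 0.511% of all kept probe sets were separated in this direction.

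In WT mice with all arrays used, the 10 genes, each read by its probe set of highest mean, had lower means in treated than in control arrays. None of the differences passed the test. At 10 mg/kg, 0 of 15 probe sets were called (limma, 10.4% of all kept probe sets called in either direction), 3 had an unadjusted p under 0.05 and were lower (14.8% of all kept probe sets), and the methods' t-test called 0. All 10 genes had a mean below controls, as did 53.9% of all kept probe sets, with a median of -0.29. Of the 15 probe sets, 13 lay below controls and 2 above, which were the x_at probe sets of C1qb. On 1434366_x_at the means were 7.02 in WT 10 mg/kg and 6.94 in WT 0 mg/kg arrays, and on 1437726_x_at 6.50 and 6.32. At 3 mg/kg, 0 were called (0.162% of all kept probe sets), 0 had an unadjusted p under 0.05 (2.61% lower), the methods' t-test called 0, and the median was -0.20. Between 10 and 3 mg/kg, 0 were called (limma, 5.25%), 0 had an unadjusted p under 0.05 (13.6% lower), the methods' t-test called 0, and the median was -0.10. The direction of this median was not stable, at -0.19 without replicate 3 and 0.01 without replicate 5 of the 10 mg/kg group, and at -0.32 with array weights.

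Clec4f stood at 9.76, 9.81, 9.89, 9.77, and 9.33 in WT 10 mg/kg arrays, against 10.06, 10.04, 10.58, 10.07, and 9.65 in arrays labeled WT 0 mg/kg. The treated arrays lay below 4 of the 5 controls, apart from replicate 5, one of the arrays doubted above. The change was -0.37 (interval -0.69 to -0.04, adjusted p = 0.130). Without replicates 4 and 5 of the controls it was -0.51 and passed the test (limma, adjusted p = 0.0312). Clec4f was the 1 probe set of the listed genes called there. In that fit 5890 of all 24069 kept probe sets were called in either direction, against 2502 with all arrays. Csf1r on 1419872_at stood at 10.11, 10.14, 10.42, 10.01, and 9.64 in WT 10 mg/kg arrays, against 10.40, 10.40, 10.86, 10.45, and 9.97 in arrays labeled WT 0 mg/kg. Its change was -0.35 with all arrays (adjusted p = 0.164) and -0.49 without the 2 doubted ones (adjusted p = 0.0505). Vsig4 differed by -0.42 and by -0.54 in these fits (adjusted p = 0.176 and 0.0569).

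C1qc stood at 9.28, 9.26, 9.53, 9.20, and 8.78 in WT 10 mg/kg arrays, at 9.15, 9.04, 9.66, 9.54, and 9.53 in WT 3 mg/kg arrays, and at 9.29, 9.29, 10.36, 9.58, and 8.98 in arrays labeled WT 0 mg/kg. The controls alone spanned more than the treated groups, with replicate 3 at the top and replicate 5 at the bottom. The change at 10 mg/kg was -0.29 (interval -0.74 to 0.16, adjusted p = 0.397), and without replicate 3 of the controls it was -0.07. Without the doubted replicates 4 and 5 it was -0.44 (adjusted p = 0.187). C1qa differed by -0.23 with all arrays, by 0.03 without replicate 3, and by -0.41 without replicates 4 and 5 (adjusted p = 0.275). Over the 10 genes, leaving out replicate 3 gave a median of -0.12 for the higher dose and -0.05 for the lower. Leaving out replicates 4 and 5 moved the medians the other way, to -0.42 and -0.30, and leaving out replicate 5 alone gave -0.41 and -0.31. Without replicate 3, C1qb on 1417063_at (0.04) and Cd68 (0.07) also lay above controls at 10 mg/kg. At 3 mg/kg C1qa (0.08), C1qb on 1417063_at (0.06), C1qc (0.10), and Marco on 1449498_at (0.11) did. The rest of the 10 genes stayed below controls at each dose. The size of the lower means in WT mice, and for these genes the direction, thus rested on which control arrays were used.

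The difference in response between genotypes was tested directly and called 0 of 15 probe sets at either dose (limma, 0.818% of all kept probe sets at 3 mg/kg and 2.95% at 10 mg/kg). The unadjusted p was under 0.05 for 0 probe sets at 3 mg/kg and 1 at 10 mg/kg (7.63% and 9.69% of all kept probe sets lower), and the methods' t-test called 0. At 10 mg/kg, C1qc responded by -0.22 more in Null than in WT mice, with an interval of -0.73 to 0.30, C1qa by -0.19 (interval -0.74 to 0.36), and Cd5l by -0.26 (interval -0.79 to 0.27). These intervals hold both no difference and one as large as the change in Null mice itself, so that calls made in Null and not in WT mice do not show that the genotypes differed. The median difference over the 10 genes was -0.07 with all arrays and -0.25 without replicate 3 of WT 0 mg/kg. Its direction turned without the doubted replicates 4 and 5 (0.01), without replicate 5 alone (0.04), and with array weights (0.04). Without replicates 4 and 5, the difference in response was -0.07 for C1qc, -0.01 for C1qa, and -0.21 for Cd5l.

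Levels in Null mice tended to lie above those in WT mice at the same dose. Over the 10 genes, the median difference of control mice was 0.24, that of mice given 3 mg/kg 0.31, and that of mice given 10 mg/kg 0.14. The median of controls was 0.12 without the doubted arrays. That of mice given 10 mg/kg ran between 0.03 without replicate 5 of the WT group and 0.27 without replicate 5 of the Null group. Genes of other lists lay higher too in Null mice given 3 mg/kg. All 5 C1 partners were called higher, with a median of 0.48, and 2 of 13 stellate cell and fibroblast markers were, with a median of 0.25. Their part in the difference of the 10 genes was not tested. At 3 mg/kg, 2 probe sets were called higher in Null mice, where 5.4% of all kept probe sets were, and both were x_at probe sets of C1qb. At an unadjusted p under 0.05, 6 of 15 were higher (13.8%). On 1437726_x_at, Null 3 mg/kg arrays stood at 7.05, 7.43, 7.71, 6.71, and 6.73, against 5.73, 6.00, 6.69, 6.58, and 6.12 in WT 3 mg/kg arrays. All Null arrays were above all WT arrays, by a narrow margin, and 5.19% of all kept probe sets were separated in this direction. The difference was 0.90 with a standard error of 0.24 (limma, adjusted p = 0.0174), and the call was lost when replicate 2 or 3 of the Null group or replicate 1 of the WT group was left out (adjusted p = 0.0576, 0.0538, and 0.0686). On 1434366_x_at the difference was 0.38 (adjusted p = 0.0495) and was lost in 21 of 30 runs that left out 1 array. The main probe set of C1qb, 1417063_at, gave 0.33 and was not called (interval -0.04 to 0.70, adjusted p = 0.258).

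At 0 and 10 mg/kg, 0 of 15 probe sets differed between Null and WT mice (limma, 1.25% and 12% of all kept probe sets called in either direction), 3 and 4 had an unadjusted p under 0.05 and were higher in Null mice (8.97% and 13.7%), and the methods' t-test called 0. At 10 mg/kg the lowest adjusted p was 0.0896, for Csf1r on 1419872_at, which averaged 10.44 ± 0.258 in Null and 10.06 ± 0.281 in WT mice (SD, n = 5 each). Clec4f lay between 9.90 and 10.31 in Null 10 mg/kg and between 9.33 and 9.89 in WT 10 mg/kg arrays, and was the 1 probe set whose groups did not overlap (3.36% of all kept probe sets), with a difference of 0.33 (adjusted p = 0.107). At 0 mg/kg the comparison rests on the doubted arrays. Without replicates 4 and 5 of WT 0 mg/kg, Clec4f differed by 0.13 in place of 0.28 and C1qc by 0.16 in place of 0.31. Without replicate 3, the median over the 10 genes was 0.43 in place of 0.24, and 1 probe set was called, whereas without replicates 4 and 5 the median was 0.12 and 0 were called.

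Over the 6 groups, Null 0 mg/kg had the highest mean for 9 of the 10 genes and WT 10 mg/kg the lowest for 7. Neighbors in this order were seldom apart. Of 50 neighboring pairs of groups, 1 was separated by more than the larger of their SDs, which was C1qc in Null 3 mg/kg (9.54 ± 0.111) and Null 0 mg/kg (9.81 ± 0.175) arrays (SD, n = 5 each).

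**Figure D3:**
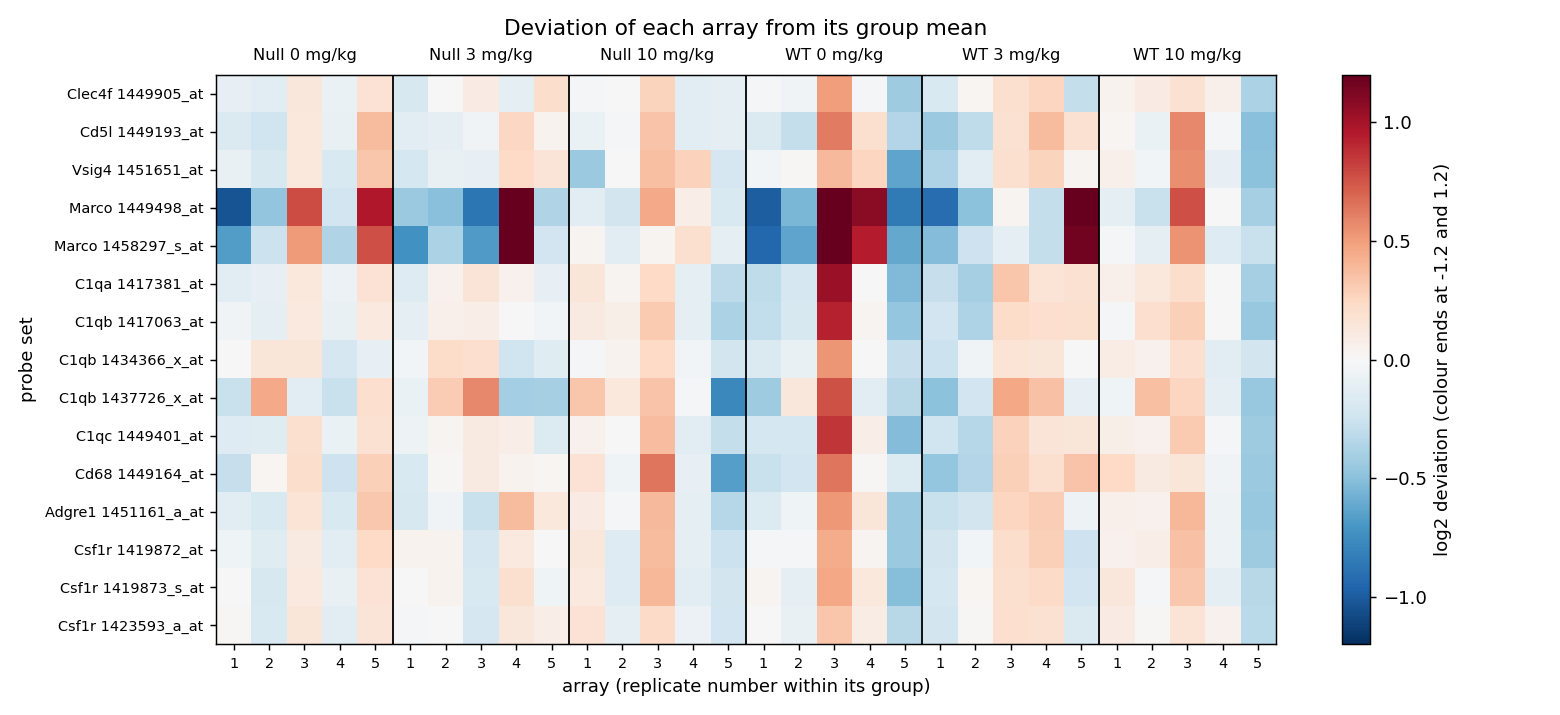
Deviation of each of the 30 arrays from its own group mean on the log2 scale, for the 15 probe sets (rows), with arrays in columns by group and replicate number. Most rows of an array share a color, as in replicate 3 of WT 0 mg/kg, where every probe set is above its group mean, and the Marco rows reach the ends of the scale.

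The markers varied together from mouse to mouse. After the group mean was subtracted from each value, the correlation over the 30 arrays between 2 of the 10 genes was 0.25 to 0.98 over 45 pairs, with a median of 0.78. The 3 pairs among C1qa, C1qb, and C1qc had correlations of 0.97 to 0.98. Without the 2 arrays farthest from their group mean, replicates 3 and 5 of WT 0 mg/kg, the median was 0.70 and the range 0.04 to 0.96. These are descriptions over arrays that share a normalization and are given without a test.

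Marco followed the others least. Its 9 pairs had a median correlation of 0.57, against 0.80 for the 36 pairs without it. Marco on 1449498_at stood at 6.57, 6.50, 6.14, 9.19, and 6.65 in Null 3 mg/kg arrays, against 5.31, 5.87, 7.13, 6.12, and 7.30 in Null 0 mg/kg arrays. Replicate 4 of the treated group stood far above the rest, and the second Marco probe set read 8.87 in the same array. Single high arrays also occurred in WT mice, with 7.90 in replicate 5 of 3 mg/kg and with 7.76 and 7.53 in replicates 3 and 4 of 0 mg/kg. In the 10 mg/kg arrays Marco lay between 5.45 and 6.63 in both genotypes. Its change was 0.67 at 3 mg/kg in Null mice (interval -0.35 to 1.69, adjusted p = 0.522).

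The genes outside the list whose deviations were most like the mean of the 10 were Cfp, Rac2, Treml4, Tyrobp, and Tnfrsf21, with correlations of 0.94, 0.92, 0.89, 0.89, and 0.88 over 30 arrays. Without the 2 farthest arrays these were 0.91, 0.90, 0.83, 0.85, and 0.82. Cfp encodes properdin, the stabilizer of the alternative complement pathway, Rac2 a GTPase of blood cells, and Tyrobp a signaling adaptor of myeloid receptors. At 10 mg/kg in Null mice they differed by -0.32 for Cfp, -0.23 for Rac2, -0.19 for Treml4, -0.46 for Tyrobp, and -0.05 for Tnfrsf21, and none passed the test, with Tyrobp closest (limma, adjusted p = 0.0509).

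Among 28 other Kupffer cell and macrophage markers, 4 fell and 0 rose at 10 mg/kg in Null mice, with a median of -0.31, where 3.88% of all kept probe sets were called lower. Each gene of this list was read by its probe set of lowest p over the dose effects. This choice favors calls, and the 3.88% does not share it, so the count and the share are not alike. The median of the 10 genes used the probe set of highest mean. They were Fcer1g, the common gamma chain of Fc receptors (-0.47, adjusted p = 0.0116), Folr2, a folate receptor of resident macrophages (-0.46, 0.0122), Fcna, a ficolin that recognizes microbial sugars (-0.52, 0.0130), and Clec1b, a C-type lectin that binds podoplanin (-0.49, 0.0190). All 4 stayed called in each of the 15 runs without 1 Null array (adjusted p of at most 0.0494) and in the fit of all 30 arrays (at most 0.0398). Without replicate 3 of Null 10 mg/kg, 13 of the 28 were called. That array was the treated one in which the 10 genes stood highest. The calls over all kept probe sets in that run are not given here, so no share stands beside this count. Fcna stood at 9.61, 9.88, 9.94, 9.89, and 9.74 in Null 10 mg/kg arrays, against 9.95, 10.28, 10.45, 10.29, and 10.68 in Null 0 mg/kg arrays. Its groups did not overlap, by a narrow margin (9.94 and 9.95), where 4.15% of all kept probe sets were separated in this direction. It also fell at 10 mg/kg in WT mice (-0.43, adjusted p = 0.0237), where it was the 1 marker called and where the median of the list was -0.31, and this call was lost when replicate 2 or 3 of the WT controls or replicate 1 or 5 of the treated WT group was left out. Without the doubted arrays, 4 of the 28 were called lower in WT mice and the median was -0.46, and array weights gave 4 as well. Over all kept probe sets, these fits called 5890 and 4873 in either direction, against 2502 with all arrays unweighted. Fcna was also the 1 marker called in Null mice at 3 mg/kg (-0.45, adjusted p = 0.0387, lost in 9 of 15 runs). There 3.88% of all kept probe sets were called in either direction.

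Genes that act on or with macrophages were read in the same way. At 10 mg/kg, 1695 of all 24069 kept probe sets were called in either direction in Null mice and 2502 (10.4%) in WT mice. At 3 mg/kg in Null mice 3.88% were. The choice of probe set in the lists favors calls, and these totals do not share it. Of 9 CSF1R ligands and macrophage transcription factors, 0 were called in Null mice (limma) and Maf alone fell in WT mice at 10 mg/kg (-0.44, adjusted p = 0.0466), a call lost in 11 of 15 runs without 1 array. In Null mice at this dose Maf differed by -0.55 (adjusted p = 0.192). Spi1, which encodes PU.1, differed by -0.17 at 10 mg/kg in Null mice (adjusted p = 0.235). Il18, a cytokine of the IL-1 family, fell at 10 mg/kg in Null mice (-0.36, adjusted p = 0.0120) and in WT mice (-0.42, adjusted p = 0.0402), and the call in WT mice was lost in 8 of 15 runs. Il1rn, the interleukin-1 receptor antagonist, rose at 10 mg/kg in Null mice (0.56, adjusted p = 0.0274, lost in 5 of 15 runs). Il18 and Il1rn were among 7 macrophage cytokines and chemokines that passed the filter. At 10 mg/kg, 6 of the 7 had means below controls in Null mice (median -0.15) and 3 of the 7 in WT mice (median 0.09). Of the partners of C1q, the proteases C1s1 and C1ra fell in WT mice at 10 mg/kg (-0.70 and -0.30, adjusted p = 0.00109 and 0.0326, the second lost in 7 of 15 runs), and 0 of 5 were called at 10 mg/kg in Null mice, with C1ra at -0.23 (adjusted p = 0.0775) and C4bp, an inhibitor of the pathway, at 0.17 (adjusted p = 0.289). C4bp rose in Null mice at 3 mg/kg (0.48, adjusted p = 0.0114). Cd36, a scavenger receptor that hepatocytes express too, rose at 10 mg/kg by 0.81 in Null mice and by 2.29 in WT mice (adjusted p = 0.00900 and 2.68e-05). It was 1 of 7 phagocytic receptors and bridging ligands, of which 6 had means below controls at 10 mg/kg in Null mice, with a median of -0.09. Scarb1, the HDL receptor, fell there (-0.37, adjusted p = 0.0390, lost in 10 of 15 runs). At 3 mg/kg in Null mice Lrp1, an endocytic receptor, and Cd36 rose (0.38 and 0.65, adjusted p = 0.0329 and 0.0385, lost in 7 and 8 of 15 runs).

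**Figure D4:**
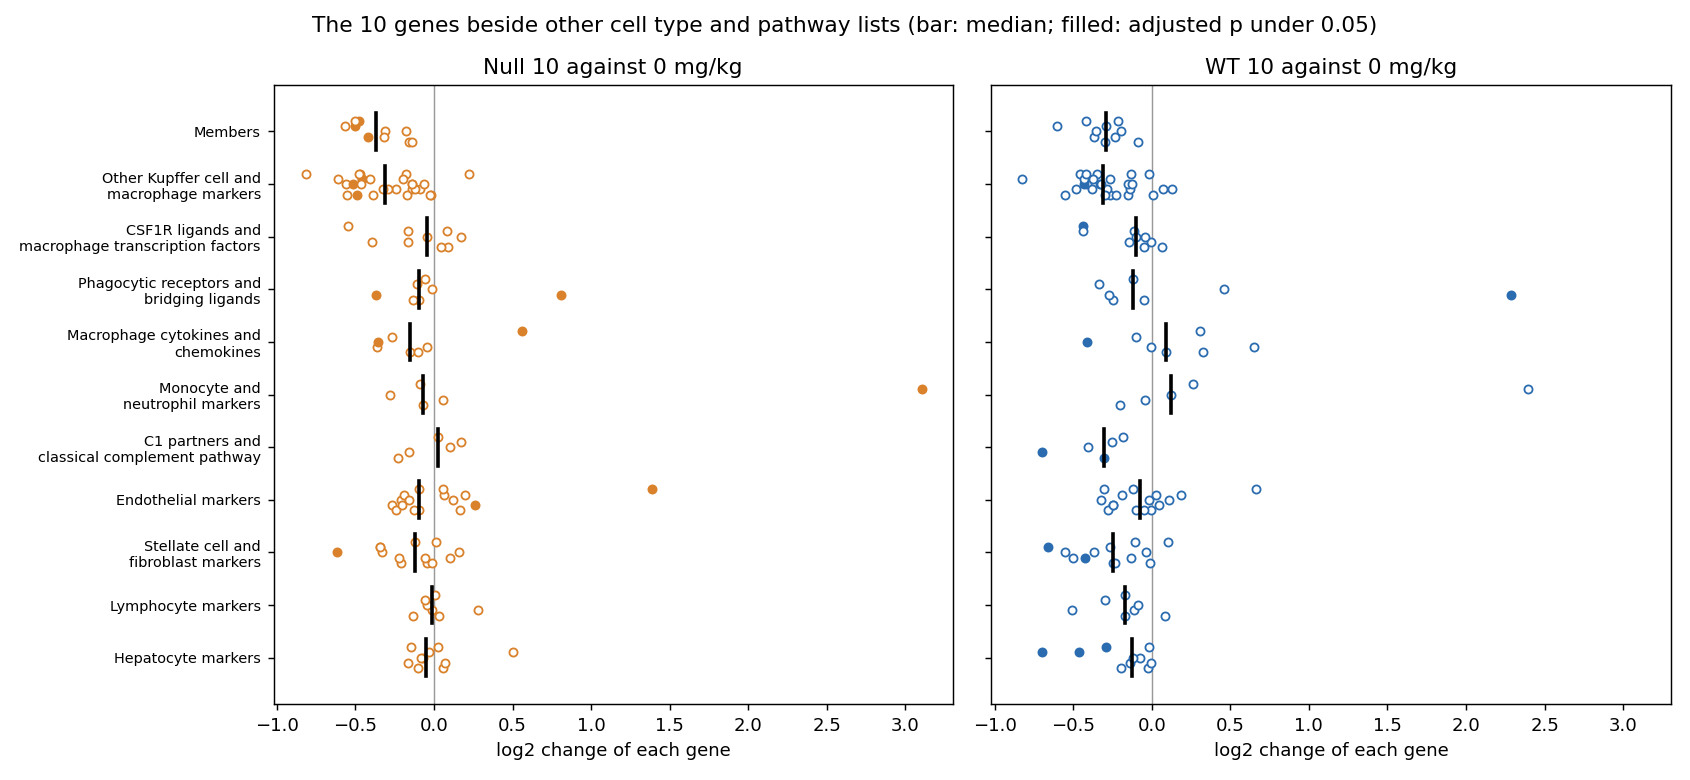
Log2 change at 10 against 0 mg/kg of each gene in the list of 10 and in other cell type and pathway lists, for Null mice (left) and WT mice (right), with the list median as a bar and filled points for genes that passed the test. In Null mice the medians are -0.37 for the 10 genes, -0.31 for 28 other macrophage markers, -0.15 for cytokines, and -0.12 for stellate cell markers, and in WT mice they are -0.29, -0.31, 0.09, and -0.25, with -0.17 for lymphocyte and -0.13 for hepatocyte markers. The 10 genes were read by the probe set of highest mean, and genes of the other lists by that of lowest p.

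Markers of other cells were set beside the fall of the macrophage genes in Null mice at 10 mg/kg. In that comparison 1695 of all 24069 kept probe sets were called in either direction. Of 16 endothelial markers, Lyve1 and Pecam1 rose (1.39 and 0.26, adjusted p = 0.0177 and 0.0487, that of Pecam1 lost in 13 of 15 runs). Lyve1 was read by a weak probe set, with means of 6.50 in Null 10 mg/kg and 5.11 in Null 0 mg/kg arrays. Its control mean lay below the overall median, the cutoff of the filter, so the size of this rise is uncertain. The median change of the list was -0.10. The list mean was 8.13 to 8.54 in Null 10 mg/kg arrays and 8.18 to 8.34 in Null 0 mg/kg arrays. Of 10 hepatocyte markers 0 were called (limma), Tat and Apoa1 having the smallest p (0.50 and -0.16, adjusted p = 0.0587 and 0.141), with a list mean of 13.14 to 13.33 in Null 10 mg/kg and 13.10 to 13.25 in Null 0 mg/kg arrays. Of 12 monocyte and neutrophil markers, 5 passed the filter, and S100a8, an alarmin of neutrophils, was called higher (3.11, adjusted p = 0.0333). S100a8 stood at 9.94, 10.38, 6.09, 6.03, and 9.87 in Null 10 mg/kg arrays, against 5.15, 4.99, 6.16, 5.27, and 5.21 in Null 0 mg/kg arrays. It was thus high in 3 of 5 treated arrays, and its call was lost in 8 of 15 runs. The mean of these 5 genes was 6.44 to 7.39 in Null 10 mg/kg and 6.14 to 6.83 in Null 0 mg/kg arrays. Their median change was -0.07, and 3 of the 5 had means below controls. Of 13 stellate cell and fibroblast markers, Rgs5 fell (-0.61, adjusted p = 0.0257, lost in 5 of 15 runs), and the median was -0.12. Each gene of these lists was read by its probe set of lowest p, and with the probe set of highest mean 0 stellate cell markers were called. Of 7 lymphocyte markers 0 were called, with Ms4a1 at 0.28 and Cd8a at -0.13 (adjusted p = 0.333 and 0.413). Of the bile duct cell markers Epcam stood at -0.08 and Krt19 at 0.08, and the red blood cell marker Alas2 at 0.26, and none passed. The part of these cell types in the change of the macrophage genes was not tested.

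In WT mice at 10 mg/kg, markers of other cells also had lower means. With all arrays, 10.4% of all kept probe sets were called in either direction and 53.9% had means below controls. Without the doubted arrays, 5890 of all 24069 kept probe sets were called in either direction. Of 13 stellate cell and fibroblast markers, 12 had means below controls, and Dcn, a matrix proteoglycan, and Hgf, a growth factor for hepatocytes, fell (-0.66 and -0.42, adjusted p = 0.00491 and 0.0317, that of Hgf lost in 4 of 15 runs). The list median was -0.25, against -0.20 at 3 mg/kg, and the list mean was 7.73 to 7.92 in WT 10 mg/kg and 7.88 to 8.44 in WT 0 mg/kg arrays. Without the doubted arrays, 5 stellate cell markers were called lower at 10 mg/kg and the median was -0.33. All 10 hepatocyte markers had means below controls, and 3 fell. These were Cps1 and Ass1, enzymes of the urea cycle, and Tat, which breaks down tyrosine (-0.29, -0.70, and -0.46, adjusted p = 0.0106, 0.0218, and 0.0426). Ass1 was read by a weak probe set, at 6.65 in WT 10 mg/kg and 7.35 in WT 0 mg/kg arrays. This is far below the list mean, which used the probe sets of highest mean. The calls of Ass1 and Tat were lost without the doubted arrays (adjusted p = 0.0633 and 0.0939). The hepatocyte list mean was 12.99 to 13.06 in WT 10 mg/kg and 13.18 to 13.26 in WT 0 mg/kg arrays, with no overlap. Of 16 endothelial markers 0 were called with all arrays (limma), with Fcgr2b at -0.25 and Stab2 at -0.31 (adjusted p = 0.0808 and 0.0922), and 7 were called lower without the doubted arrays. S100a8 differed by 2.39, Ccr2 by -0.20, Cd79a by -0.30, and Ms4a1 by -0.51, and none of these monocyte, neutrophil, and lymphocyte markers passed. Of the remaining lists, Sox9 differed by 0.07, Epcam by 0.05, and Alas2 by 0.14, and none passed. Whether these cell types had a part in the lower means of the macrophage genes in WT mice was not tested.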

How the data were processed

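Liver RNA of 30 mice, 5 in each of 6 groups, was hybridized to Affymetrix mouse genome arrays, with groups and replicate numbers taken from the labels. The methods describe all arrays as labeled and hybridized together, and no batch could be tested. The authors ran RMA Express, which adjusts background, normalizes by quantiles, and summarizes probes, and deposited 1 log2 value for each of 45101 probe sets and each array. Which build or annotation served the arrays is not given in the sources used here. The 64 control probe sets were dropped. Of the rest, 24069 exceeded 5.65, the overall median, on 5 or more of the 30 arrays and were kept.

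Probe sets were named through the platform annotation, which gives 34958 probe sets 1 gene, 932 several, and 9211 none, with symbols updated through the Entrez number for 34754. Promoter sequences came from RefSeq (GRCm38.p6). Doses were compared within a genotype in 1 limma fit of its 15 arrays, and genotypes in a fit of all 30 arrays (limma 3.58.1, R 4.3.3, lmFit and eBayes). A probe set was called at a Benjamini-Hochberg adjusted p under 0.05. The methods' t-test took unadjusted p of at most 0.0025. All probe sets of the 10 genes were described. From each other list, the called genes were named, up to 4, or the 2 with the smallest p where none passed, and 5 genes were named by likeness. At 3 mg/kg the called genes alone were named. For the 10 genes, medians and correlations used the probe set with the highest mean per gene. Genes of other lists were read by whichever probe set had the lowest p in an F test of the dose effects. The members and lists were chosen with earlier results of these data known.

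Alternatives were no filter and a stricter filter, a shift of every array to 1 median, a second quantile normalization, a trend with robust spread, array weights, fits of more or fewer groups, a block for replicate number, the methods' t-test with and without adjustment, the doubted arrays left out, the probe set with the highest mean for genes of the other lists, and each array left out in turn. The steps were tested on simulated data. Matplotlib 3.10.9 (Python 3.11.15) drew the figures.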

Additional observations from a re-analysis of the deposited data

Results flagged for a closer look

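Of 90 groups of 5 arrays examined, 6 groups for each of 15 probe sets, 5 held an array whose gap to the nearest other array took up more of the group's range than the limit of 0.71. Chance gives such a gap in about 1 of 20 groups. Marco gave 3 of the 5. In Null 3 mg/kg arrays, replicate 4 read 9.19 on 1449498_at, where the next array read 6.65, and 8.87 on 1458297_s_at, where the next read 6.61. In WT 3 mg/kg arrays, replicate 5 read 7.21 on 1458297_s_at and the next array 5.94. Clec4f read 9.33 in replicate 5 of WT 10 mg/kg, below the next array at 9.76. Cd5l read 10.23 in replicate 3 of Null 10 mg/kg, above the next array at 9.87. No difference in response between genotypes passed the test for any of the 15 probe sets at either dose.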

How the results depend on the processing

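No called value changed direction under the alternatives run. At 10 against 0 mg/kg in Null mice, the 3 calls became 1 with the compared groups alone (C1qc), 0 with all 30 arrays in 1 fit, and 1 to 6 with 1 array left out. Over all kept probe sets, the first 2 of these fits called 1080 and 2245 in either direction, against 1695 in the main fit. The calls over all kept probe sets with 1 array left out are not given here. In WT mice at the same dose, the 0 calls became 3 with array weights, 1 without the 2 doubted arrays, and 0 to 2 with 1 array left out (2 without replicate 5 of the controls). Of all 24069 kept probe sets, array weights called 4873 and the fit without the doubted arrays 5890, against 2502 in the main fit. For Null against WT at 3 mg/kg, the 2 calls became 1 without a filter, with each array shifted to the same median, and by the methods' t-test at its own limit or after adjustment, and 0 to 2 with 1 array left out. Over all kept probe sets, the shift called 2155 and the t-test 1755 and 2280, against 2347 in the main fit. The run without a filter called 2094 out of a larger number of probe sets. For Null against WT at 10 mg/kg, the 0 calls became 4 with array weights and 0 to 1 with 1 array left out, the call arising when replicate 3 of the treated WT group was dropped. Array weights there called 4951 of all kept probe sets, against 2900 in the main fit. At 0 mg/kg the range was 0 to 1, the call arising when replicate 3 of the WT controls was dropped. At 3 against 0 mg/kg in Null mice, 1 was called (C1qa) with array weights or the compared groups alone, and at 10 against 3 mg/kg in WT mice 1 with array weights. Over all kept probe sets, the 2 fits in Null mice called 3117 and 1726, against 933 in the main fit. The fit in WT mice called 4199, against 1264. Counts of calls in the remaining comparisons stayed at 0 under every alternative run. For the other lists, 48 counts gave 600 values under the alternatives, of which 88 moved by more than 1.5 times, and 720 values with 1 array left out, of which 117 did.

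With the replicate number as a block, calls at 10 against 0 mg/kg numbered 5 in Null mice (adding Vsig4 and Clec4f) and 2 in WT mice (Clec4f and Csf1r), and 1 for Null against WT at 0 mg/kg. For Null against WT at 3 mg/kg the block gave 3 calls in place of 2, and it changed no other count of calls among the 10 genes. Same-numbered arrays of different groups had a median correlation of deviations of 0.04, and 6 of 30 arrays were closest to an array of their own number, so the numbers were taken as names only. With 5 arrays per group, the intervals of Cd68, Adgre1, and all 3 Csf1r probe sets at 10 mg/kg in Null mice included 0.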
